A study of Rattus norvegicus with 15 samples.

Results

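The comparison described here set the multifidus muscle of rats 28 days after spinal surgery against that of uninjured rats, across all genes. It used 4 of the 15 RNA sequencing libraries of the series, namely the 2 of the surgery group and the 2 of the control group, chosen by their sample labels. The rats were wild type male Sprague Dawley animals aged 12 weeks. Rats of the surgery group had a left hemilaminectomy in which the L5 and L6 laminas and their facet joint were taken out and the left L5 spinal nerve was tied, and received no treatment afterwards. Control rats had no injury. The other libraries came from operated rats injected with plasma-derived mitochondria (the pMT group, 4 libraries, 25 µg per site), with cholecalciferol (the VitD group, 3 libraries, 150 µg per site) or with both (the pMT/VitD group, 4 libraries). These entered the fit for the spread, and the VitD libraries are set beside the comparison as operated muscle without pMT. The control group was not sham operated, so wounding, loss of the nerve and disuse cannot be told apart.

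Multifidus is the deep paraspinal muscle that steadies the lumbar vertebrae, and each of its fascicles is fed by the nerve of its own segment. When a skeletal muscle fibre loses its nerve, it is known to spread acetylcholine receptors over its surface, to take up the fetal receptor subunit again, and to express myogenin and proteins of embryonic muscle. Injured muscle is also known for macrophage entry, complement production and deposition of collagen matrix by fibroblasts.

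Levels are given as CPM, the count of a gene relative to the library total after TMM scaling between libraries, and a gene was called where edgeR's quasi-likelihood test gave a Benjamini-Hochberg adjusted p under 0.05. The control libraries held 68592996 and 64352162 counts and the surgery libraries 69303658 and 65642999 counts, so depth differed little between the groups. The spread behind the p-values and SE was estimated within the groups over all 15 libraries, not from the 4 compared ones alone. Labels do not say whether libraries of a group came from separate rats, so that spread may be technical. Fibre markers were abundant in all 4 libraries, with Acta1, skeletal muscle actin, at 66590 and 54960 CPM in the control and 53060 and 50810 CPM in the surgery libraries. The tissue is bulk muscle, in which fewer cells of a type and less RNA per cell cannot be told apart.

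Likeness between libraries did not always follow the labels. Over 7804 well-measured genes the 2 surgery libraries were the closest of all pairs in the series, with a biological coefficient of variation of 0.0382, against 0.0724 for the 2 control libraries. Surgery replicate 2 and VitD replicate 2 came next at 0.0466. Counts of the surgery pair still differed beyond sampling noise, with a median squared deviation 3.65 times that of counting, and they were kept as 2 libraries. Control replicate 1 was described better by a weighted mean of pMT/VitD replicates 3 and 4 (weights 0.4 and 0.6) than by control replicate 2. The log2 ratios of its genes had a spread of 0.0768 to the former and 0.152 to the latter. That mean was the best of 91 pairs with fitted weights, while control replicate 2 was taken as it stood. VitD replicate 2 lay in the same way between VitD replicates 1 and 3, with weights of 0.3 and 0.7 and a spread of 0.0719. Surgery replicate 1 had a spread of 0.107 to a mean of the same 2 libraries (weights 0.3 and 0.7), against 0.305 and 0.165 to each alone. Surgery replicate 2 had one of 0.0844 (weights 0.25 and 0.75), against 0.298 and 0.149. The spread between the 2 surgery libraries was 0.0807. These fits were chosen after the data were seen, and the part of shared or pooled material in the results was not tested.

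Of 17201 genes tested, 266 were called between surgery and control, which is 1.55% of them. Of these, 215 were higher after surgery (1.25% of the genes tested) and 51 were lower (0.296%). The median log2 fold change was 1.12 for the higher and -0.88 for the lower genes, against -0.01 for all genes tested. A change of at least 2-fold was reached by 134 of the higher and 20 of the lower genes. An unadjusted p under 0.05 was reached by 2923 genes (17%). The 2 surgery libraries did not overlap with the 2 control libraries in any called gene, but the same held for 66.1% of all genes tested. Protein-coding genes made up 252 of the calls, and 25 called genes carry a placeholder symbol of the LOC or RGD kind.

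**Figure D1:**
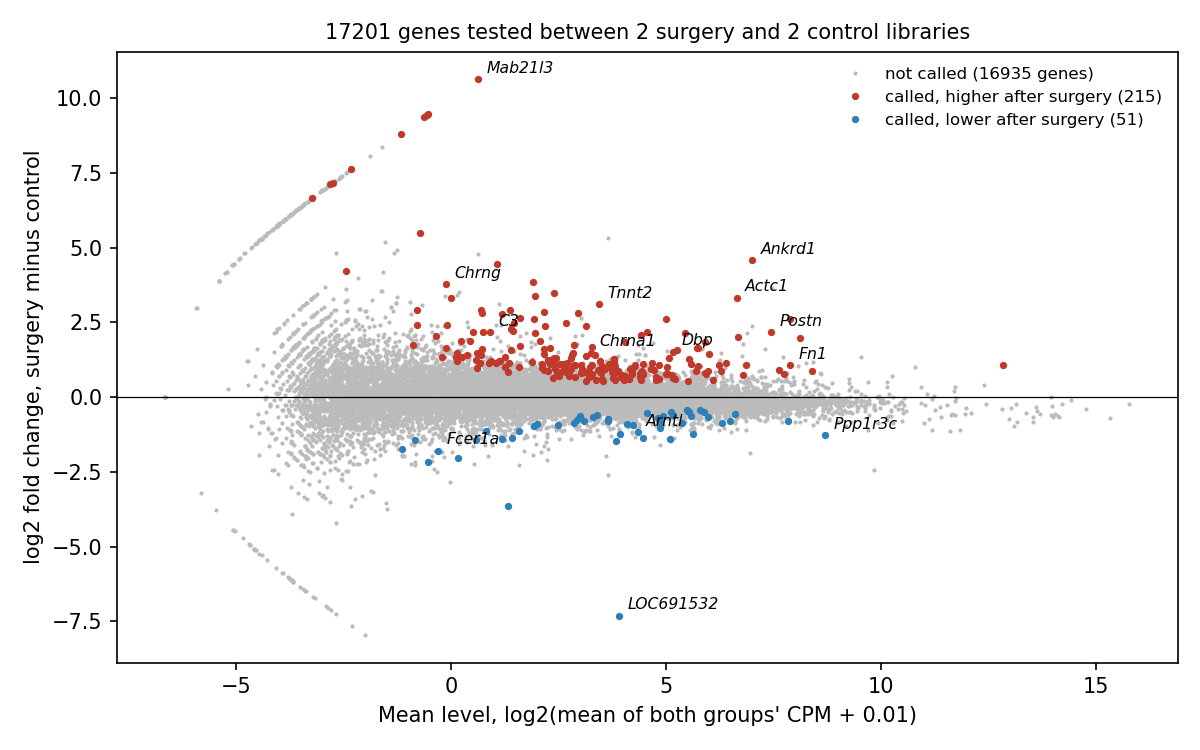
Each point is 1 of the 17201 genes tested, with its mean level over the control and surgery groups on the x axis (log2 CPM after adding 0.01) and its log2 fold change, surgery minus control, on the y axis. The 215 genes called higher reach further from 0 than the 51 called lower, apart from LOC691532 at -7.31, and points on the outer arcs are genes without a count in 1 group, whose fitted values depend on the prior count.

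The number of calls rested on every library. Leaving out control replicate 1 or control replicate 2 gave 8 calls each, of which 8 and 5 were among the 266. Leaving out surgery replicate 1 gave 12 (12 among the 266) and leaving out surgery replicate 2 gave 20 (19 among them). With the control, surgery and VitD libraries alone there were 236 calls (157 higher, 79 lower), of which 118 were among the 266, and Ankrd1, Actc1, Cdkn1a, Tnnt2 and Chrng were not called there. Without VitD replicate 2 in the fit there were 123 calls, without it and pMT replicate 2 and pMT/VitD replicate 1 there were 20, and with only the control and surgery libraries 5289. No gene called in the full fit turned its direction in any of these fits. These fits could hardly turn a direction, because the groups did not overlap in any called gene. The call of Mustn1, C4a and LOC691532 was kept in all 18 other settings that used an adjusted p without a fold threshold, and that of Wisp2 in 17.

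Subunits of the acetylcholine receptor were among the genes of the muscle fibre that rose. Chrng encodes the fetal gamma subunit, which adult innervated fibres replace by epsilon. It stood at 0.142 and 0.1 CPM in the control libraries and at 2.06 and 1.34 CPM in the surgery libraries. These levels were low, with 9 and 6 counts in the control libraries. The groups did not overlap, as in 66.1% of all genes tested. The rise was 13.8-fold (log2 fold change 3.78 ± 0.75, SE, n = 2 against 2, adjusted p = 0.0268). Chrna1, the alpha subunit that binds the transmitter, rose from 4.86 and 5.23 CPM to 13.8 and 14.5 CPM. Its log2 fold change was 1.49 ± 0.31 (adjusted p = 0.033). Chrnd, the delta subunit, had 3.74 and 3.1 CPM in control and 12 and 11.6 CPM in surgery libraries, and its adjusted p was 0.0601. Further subunits had fold changes close to 0. Chrne, the adult epsilon subunit, had a log2 fold change of -0.07 (adjusted p = 0.887) and Chrnb1, the beta subunit, one of 0.22 (adjusted p = 0.318). Over the 16 junction genes tested, 2 were called (12.5%, against 1.55% of all genes), both higher, and the list median was 0.19.

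Promoters of both called receptor genes hold the E-box CAGCTG, a sequence that myogenic factors such as myogenin are known to bind. They are shown with those letters in capitals, from 250 bases before to 50 bases after the RefSeq start in the GRCr8 build, each read along the gene, together with the promoter of Tnnt2, the called embryonic troponin T gene with the same letters.
Chrng, chr9:95325734-95326033, plus strand: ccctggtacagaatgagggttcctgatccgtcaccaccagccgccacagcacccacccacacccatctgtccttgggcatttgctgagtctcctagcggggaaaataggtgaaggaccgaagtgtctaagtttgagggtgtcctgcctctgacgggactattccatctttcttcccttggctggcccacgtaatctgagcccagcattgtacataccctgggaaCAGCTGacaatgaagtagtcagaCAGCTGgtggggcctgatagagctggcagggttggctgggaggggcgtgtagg
Chrna1, chr3:78877304-78877603, minus strand: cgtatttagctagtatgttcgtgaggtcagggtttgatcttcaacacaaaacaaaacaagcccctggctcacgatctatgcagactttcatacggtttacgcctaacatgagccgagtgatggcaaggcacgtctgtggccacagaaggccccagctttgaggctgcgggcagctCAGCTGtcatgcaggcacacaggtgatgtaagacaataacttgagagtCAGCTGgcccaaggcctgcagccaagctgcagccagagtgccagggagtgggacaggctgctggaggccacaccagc
Tnnt2, chr13:49818873-49819172, plus strand: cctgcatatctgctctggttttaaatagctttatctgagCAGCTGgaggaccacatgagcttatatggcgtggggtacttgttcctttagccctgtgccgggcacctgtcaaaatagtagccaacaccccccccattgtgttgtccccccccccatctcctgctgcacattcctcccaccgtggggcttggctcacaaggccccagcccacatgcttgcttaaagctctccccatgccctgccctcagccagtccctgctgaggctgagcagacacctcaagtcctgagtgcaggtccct
In Chrng the letters begin 26 and 3 bases before the start, in Chrna1 75 and 27 bases before it and in Tnnt2 211 bases before it. The letters read the same on both strands. They are present in 15.1% of all 33469 promoters of this length, and at least 2 times in 1.69% of them. Among the called genes with a promoter in the RefSeq table, 31 of 149 higher and 11 of 43 lower genes hold them. Of the 54 called genes named by rule with such a promoter, 13 do. The promoters of Actc1, Cdkn1a and Myog, called higher, lack the letters. Those of Palld, Ppp1r3c and Fcer1a, called lower, hold them. A match is a description of the letters and not of binding.

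Other genes that denervated fibres are known to express also rose, by 2.12-fold to 23.9-fold. Ankrd1, a stress-responsive ankyrin repeat protein of the I-band, had 10.3 and 10.5 CPM in control and 244 and 253 CPM in surgery libraries. This was the largest fold among the called genes with controls above the floor of 3 counts, 23.9-fold (log2 fold change 4.58 ± 0.77, adjusted p = 0.0141). Cdkn1a, the cell cycle inhibitor p21, rose from 9.23 and 8.62 CPM to 55.6 and 54 CPM, a log2 fold change of 2.62 ± 0.44 (adjusted p = 0.0134). Ncam1, the adhesion molecule that spreads over denervated fibres, rose from 13.5 and 11.3 CPM to 26.5 and 26.1 CPM (log2 fold change 1.09 ± 0.25, adjusted p = 0.0454). Sln, sarcolipin, the small regulator of the calcium pump, was singled out after its values were seen. It had 0.789 and 0.45 CPM in control and 25.5 and 23.9 CPM in surgery libraries, yet was not called (adjusted p = 0.126). In this list of denervation genes 12 of 13 tested had a positive log2 fold change, as did 48.6% of all genes tested. Of the 13, 3 were called (23.1%, against 1.55% of all genes), and the median was 1.37.

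Embryonic sarcomere genes formed the list with the highest median, 2.44 over 7 genes tested, of which 2 were called (28.6%, against 1.55% of all genes). Actc1, cardiac actin, which fetal skeletal muscle also makes, had 19 and 17.3 CPM in control and 186 and 178 CPM in surgery libraries. The rise was 10-fold (log2 fold change 3.33 ± 0.55, adjusted p = 0.0131). Tnnt2, cardiac and embryonic troponin T, rose from 2.3 and 2.23 CPM to 19.8 and 19.2 CPM (log2 fold change 3.10 ± 0.63, adjusted p = 0.0325). Myh3, embryonic myosin heavy chain, stood at 30.7 and 22 CPM in control and 326 and 335 CPM in surgery libraries. Its groups lay far apart, but with an adjusted p of 0.0537 it was not called. Myh8, the perinatal heavy chain, did not follow, with 197.3 and 199.8 CPM in control and 183 and 188 CPM in surgery libraries (log2 fold change -0.10, adjusted p = 0.95). Its sign turned with scaling to library size alone.

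Of 17 satellite cell and myogenic genes tested, 3 were called higher (17.6%, against 1.25% of all genes). Myog, myogenin, the factor that drives myoblast differentiation and receptor genes after denervation, had 20.5 and 18.4 CPM in control and 48.7 and 46.6 CPM in surgery libraries. Its log2 fold change was 1.29 ± 0.20 (adjusted p = 0.00817). Heyl, a Notch target, and Megf10, a satellite cell receptor, rose by smaller steps of 0.61 ± 0.13 (adjusted p = 0.0352) and 0.54 ± 0.12 (adjusted p = 0.0461) on the log2 scale. Pax7, the marker of the stem cells themselves, and Myod1, the determination factor, were looked at after their values were seen. Pax7 had 5.76 and 6.08 CPM against 6.27 and 7.88 CPM (adjusted p = 0.547), and Myod1 21.7 and 18 CPM against 20.2 and 19.2 CPM (adjusted p = 0.979), with overlapping groups in Myod1. H19, the imprinted noncoding RNA of growing muscle, rose from 4969 and 4619 CPM to 10120 and 9868 CPM (log2 fold change 1.06 ± 0.24, adjusted p = 0.0412).

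The largest increases outside these lists belonged to genes of varied roles. Mustn1, a small nuclear protein of growing muscle and cartilage, rose from 69.4 and 65.9 CPM to 414 and 404 CPM. With a log2 fold change of 2.60 ± 0.29 it had an adjusted p of 0.000878. Klk1, tissue kallikrein, went from 0.82 and 0.9 CPM to 9.62 and 9.73 CPM (log2 fold change 3.49 ± 0.51, adjusted p = 0.00697). Wisp2, a matricellular protein of the CCN family, went from 2.15 and 1.73 CPM to 14.4 and 12.8 CPM (log2 fold change 2.81 ± 0.32, adjusted p = 0.00112). Emb, embigin, Ctxn3, cortexin 3, C1qtnf3, a secreted C1q relative, Serpina3n, a protease inhibitor, and Lilrb3a, an inhibitory receptor of leukocytes, also belonged to the 15 largest, with log2 fold changes between 2.22 and 2.83. The immune receptor was counted beside near-identical relatives, and its reads may be split among them. The placeholder genes RGD1564861 and RGD1311744 rose by 3.40 and 2.39 on the log2 scale.

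Of the called genes, 9 had no count in either control library. Mab21l3, Clec2dl1 and Lilrb3 were the best measured of them and were named after their values were seen. Mab21l3 had 212 and 250 counts in the surgery libraries, which against a floor of 3 counts per control library was at least 63.2-fold higher. Clec2dl1, a C-type lectin gene, had 113 and 91 counts (at least 27.8-fold higher), and Lilrb3 had 137 and 69 counts (at least 27.9-fold higher). All 3 were near 0 in the 8 libraries with pMT as well, where Mab21l3 did not pass 0.152 CPM.

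**Figure D2:**
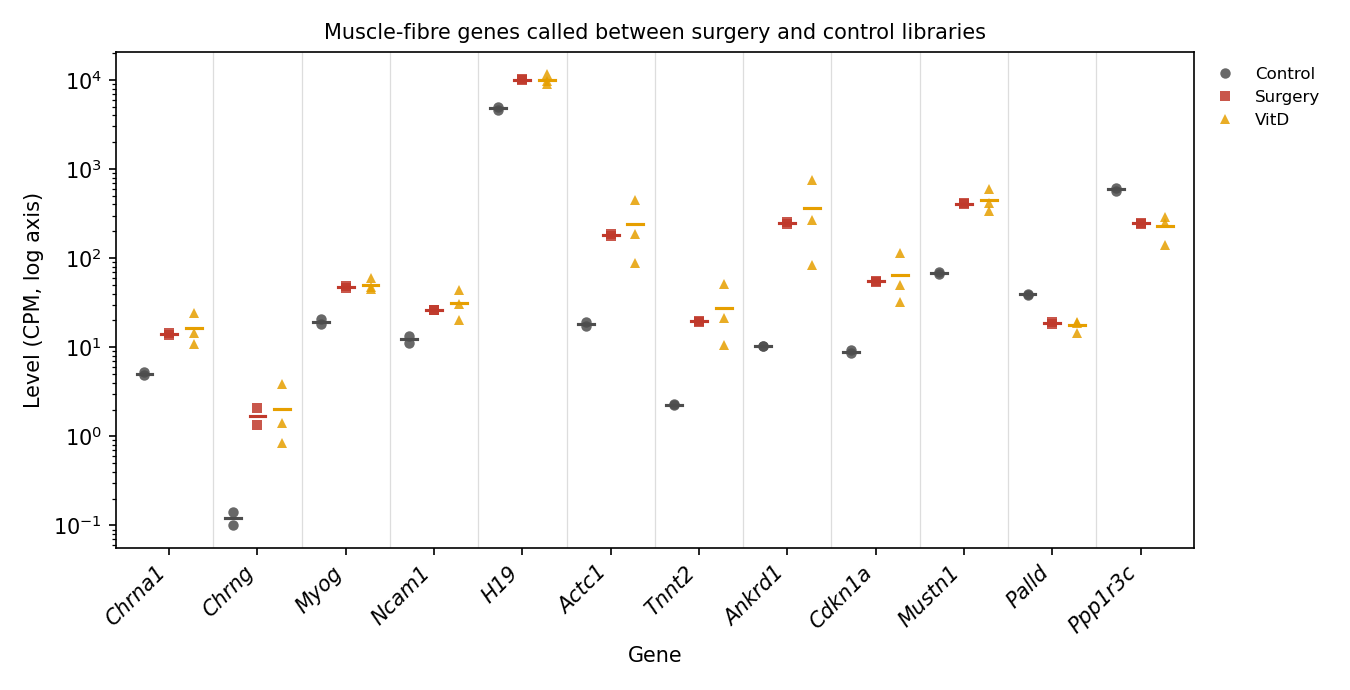
CPM (log axis) of 12 genes of the muscle fibre in each control, surgery and VitD library, with a bar at each group mean. The surgery points of each gene but Chrng nearly coincide. In every gene they lie apart from the control points, above them for all but Palld and Ppp1r3c, while the VitD points scatter around the surgery points.

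The lists of fast and slow fibre genes had no call in either direction. Among 14 fast fibre genes 13 had a negative log2 fold change, as did 51.4% of all genes tested, with a median of -0.27. Myh4, the fastest myosin heavy chain, had 20970 and 22080 CPM in control and 13950 and 14030 CPM in surgery libraries, and an adjusted p of 0.499. Atp2a1, the fast calcium pump, had 23270 and 21510 against 14070 and 13920 CPM (log2 fold change -0.68, adjusted p = 0.282). Slow fibre genes leaned the other way, with 8 of 11 positive and a median of 0.22. Myh7, slow myosin, had a log2 fold change of 0.33 (adjusted p = 0.536).

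No gene of the glycolysis and glycogen list was called. Of 25 glycolysis and glycogen genes 22 had a negative log2 fold change, against 51.4% of all genes, and the list median was -0.45. Pygm, muscle glycogen phosphorylase, had 10460 and 9909 CPM in control and 6156 and 6114 CPM in surgery libraries (adjusted p = 0.26). Aldoa, the muscle aldolase, had 21480 and 19260 against 12830 and 12640 CPM (adjusted p = 0.208). An unadjusted p under 0.05 was reached by 12 genes of this list, each with a negative log2 fold change, against 6.7% of all genes tested in that direction. A called gene of the same pathway outside the list was Ppp1r3c, the glycogen-targeting subunit of protein phosphatase 1. It fell from 573 and 605 CPM to 244 and 246 CPM (log2 fold change -1.27 ± 0.25, adjusted p = 0.0279).

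No protein gene of the mitochondrial genome was called, and no listed nuclear gene of the respiratory chain and ATP synthase. All 13 protein genes of the mitochondrial genome had a negative log2 fold change, against 51.4% of all genes. They ran from -1.14 to -0.57 with a median of -0.83, and 7 had an unadjusted p under 0.05 (6.7% of all genes in that direction). Their summed share of counts was 14.5% and 15.6% in the control and 10.7% and 11.2% in the surgery libraries. COX1, a catalytic subunit of cytochrome oxidase, had 49700 and 52110 CPM in control and 30880 and 31480 CPM in surgery libraries (log2 fold change -0.71 ± 0.36, adjusted p = 0.34). Of the 77 nuclear genes of the respiratory chain and ATP synthase 69 were negative, but the median was only -0.16 and not 1 had an unadjusted p under 0.05. The mitochondrial tRNA gene Trny fell from 30 and 33.5 CPM to 11.8 and 12.6 CPM (log2 fold change -1.38 ± 0.29, adjusted p = 0.034).

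The muscle atrophy programme showed no call among 35 genes of ubiquitin ligases, Foxo factors and autophagy, with a list median of -0.14. Trim63 (MuRF1) and Fbxo32 (atrogin-1), the ligases most often used as atrophy markers, were looked at after their values were seen. Trim63 had 287 and 313 CPM in control and 304 and 297 CPM in surgery libraries, and Fbxo32 25.2 and 24.3 against 22.7 and 22.3 CPM. Trim63 overlapped between the groups, and both had log2 fold changes close to 0, at 0.00 ± 0.19 and -0.14 ± 0.67 (SE). Their adjusted p was 0.998 and 0.941. Of 16 genes whose proteins the study blotted, Myog was called (6.25%, against 1.55% of all genes), higher after surgery, and 15 were not. The paper's blots, of protein and not RNA, showed less desmin and myogenin and more FoxO3a and Bax after surgery. Des, desmin, had a log2 fold change of -0.53 ± 0.18 (adjusted p = 0.134), Foxo3 of -0.46 ± 0.72 (adjusted p = 0.789) and Bax of 0.31 ± 0.29 (adjusted p = 0.627). Ppargc1a, the regulator of mitochondrial biogenesis, had one of -0.33 ± 0.14 (adjusted p = 0.224).

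Sizes of the small list medians depend on how libraries are brought to a common scale. TMM factors were 0.924 and 0.933 in control and 1.12 in both surgery libraries. With library size alone the median of all genes was 0.25, and the fast fibre median became 0.00, the nuclear respiratory chain median 0.11 and the atrophy median 0.13, all still below the median of all genes. The mitochondrial genome (-0.56) and glycolysis (-0.18) medians kept their sign.

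**Figure D3:**
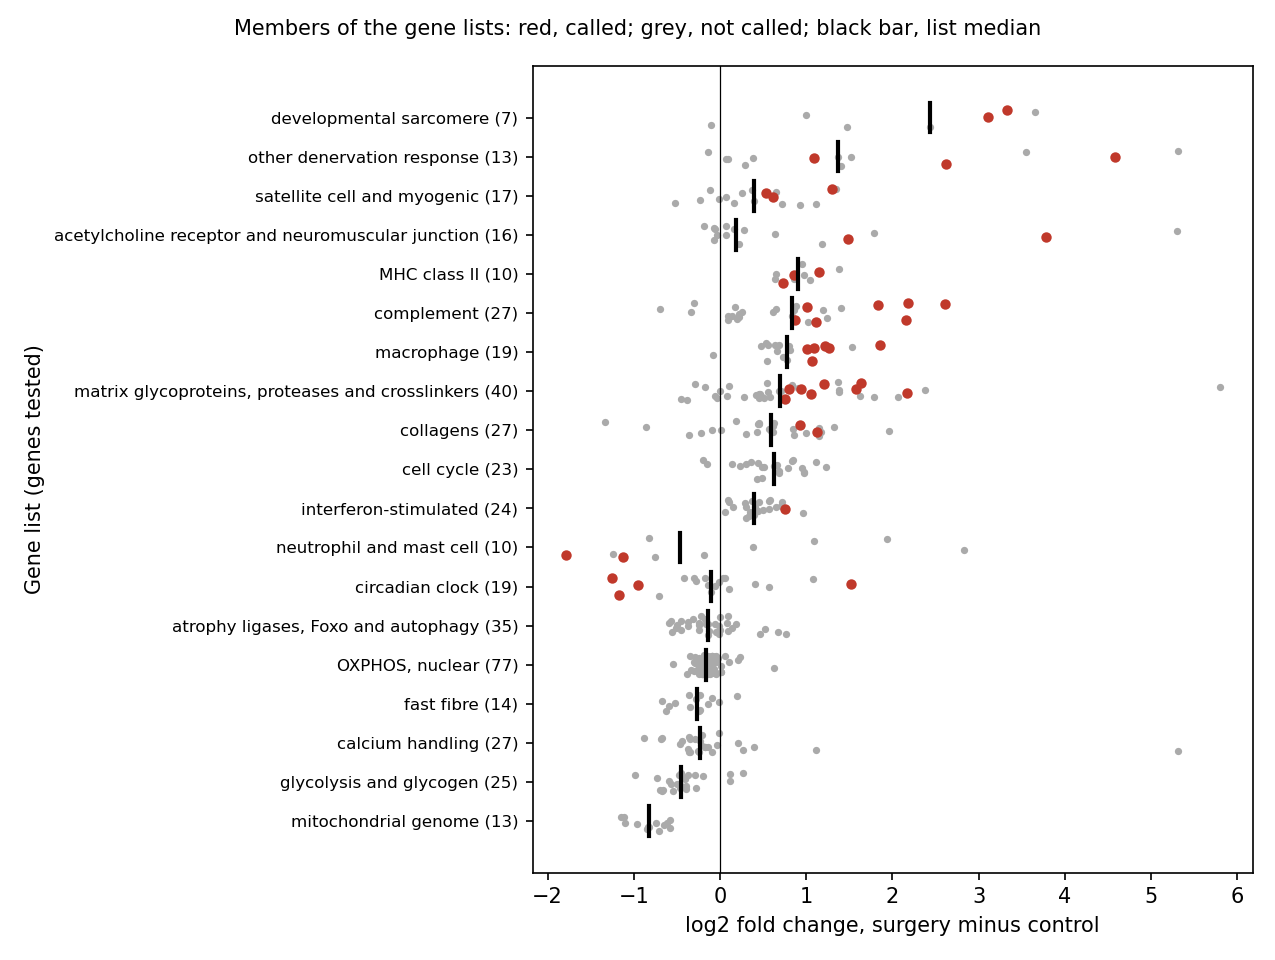
Log2 fold change, surgery minus control, of every tested member of 19 gene lists, with the number of genes tested in parentheses. Red points are called genes, grey points are not called and the black bar is the list median, which runs from 2.44 for the developmental sarcomere to -0.83 for the mitochondrial genome.

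Called genes of the extracellular matrix were all higher after surgery. Of 40 matrix glycoproteins, proteases and crosslinkers tested 8 were called (20%, against 1.55% of all genes). Of the 40, 23 were higher at an unadjusted p under 0.05, against 10.3% of all genes tested in that direction. The list median was 0.70. Postn, periostin, a matricellular protein of healing tissue, had 59.6 and 67.3 CPM in control and 278 and 294 CPM in surgery libraries (log2 fold change 2.17 ± 0.44, adjusted p = 0.0282). Mfap4, a microfibril protein, and Loxl1, a lysyl oxidase that crosslinks elastin, rose by 1.63 ± 0.28 (adjusted p = 0.0141) and 1.58 ± 0.36 (adjusted p = 0.043) on the log2 scale. Fn1, fibronectin, rose from 156 and 152 CPM to 318 and 322 CPM (log2 fold change 1.06 ± 0.23, adjusted p = 0.036). The others called were Plod2, which hydroxylates collagen lysines, Serpinh1, the collagen chaperone, Thbs2 and Prelp, with log2 fold changes from 0.75 to 1.20.

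The collagens themselves had a median of 0.59 over 27 genes, with 2 called (7.41%, against 1.55% of all genes). Col14a1, a fibril-associated collagen, rose from 52.1 and 54.4 CPM to 117 and 116 CPM (log2 fold change 1.13 ± 0.22, adjusted p = 0.0243), and Col6a6 from 7.49 and 8.9 CPM to 15.9 and 15.3 CPM (0.93 ± 0.18, adjusted p = 0.0268). Col1a1, the main chain of fibrillar collagen I, had 458 and 388 CPM in control and 1070 and 1047 CPM in surgery libraries and missed the threshold (log2 fold change 1.32 ± 0.35, adjusted p = 0.0714). Col3a1 had 1190 and 1191 against 2366 and 2377 CPM (adjusted p = 0.0851). Among 16 fibroblast and mural cell genes 1 was called (6.25%, against 1.55% of all genes). It was Fap, fibroblast activation protein, at 12.3 and 12.3 CPM in control and 23 and 24.2 CPM in surgery libraries. Summed CPM of the fibroblast and mural cell list was 514.6 to 528.4 in control and 670.6 to 678.7 in surgery libraries. The part of cell number in the matrix genes was not tested. From the growth factor list Fstl1, a follistatin relative, and Bmp4 rose by 0.91 ± 0.20 (adjusted p = 0.0376) and 0.68 ± 0.16 (adjusted p = 0.0461), beside H19. The calls were 3 of 34 genes tested in that list (8.82%, against 1.55% of all genes).

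Complement genes made up 7 of the calls, among 27 tested (25.9%, against 1.55% of all genes), and 24 of the 27 had a positive log2 fold change, against 48.6% of all genes (list median 0.84). C4a and C4b encode component C4 and are near-identical copies whose reads the counting could split. C4a rose from 8.66 and 8.53 CPM to 38.9 and 38 CPM (log2 fold change 2.16 ± 0.21, adjusted p = 0.000277), and C4b from 27.7 and 25.1 CPM to 96.5 and 91 CPM (1.83 ± 0.41, adjusted p = 0.0412). C3, the component on which the pathways meet, rose from 0.536 and 0.817 CPM to 2.47 and 3.67 CPM (log2 fold change 2.18 ± 0.33, adjusted p = 0.00817). C6, of the terminal pore, rose by 2.61 ± 0.55 (adjusted p = 0.0333), C2 by 1.01 ± 0.14 (adjusted p = 0.00468) and Cfd, the factor D made by fat cells, by 1.12 ± 0.24 (adjusted p = 0.0379). No complement gene was called lower. Masp1, a protease of the lectin pathway, had 147 and 139 CPM in control and 86.5 and 89.4 CPM in surgery libraries (adjusted p = 0.0958).

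All 10 MHC class II genes tested had a positive log2 fold change and an unadjusted p under 0.05, against 10.3% of all genes. Of the 10, 3 were called (30%, against 1.55% of all genes), and the list median was 0.90. Ciita, the master activator of these genes, rose from 1.44 and 1.72 CPM to 3.5 and 3.51 CPM (log2 fold change 1.15 ± 0.21, adjusted p = 0.0215). Cd74, the invariant chain, rose from 244 and 233 CPM to 437 and 429 CPM (0.86 ± 0.16, adjusted p = 0.0225). RT1-Da, a rat class II alpha chain, had 82.2 and 84.8 CPM in control and 138 CPM in both surgery libraries (0.73 ± 0.16, adjusted p = 0.036). Class II chains are similar in sequence, and the counts of single ones are uncertain for that reason.

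Macrophage markers showed the largest share of calls among the cell type lists, 6 of 19 tested (31.6%, against 1.55% of all genes). All 6 were higher, the median was 0.78, and 18 of 19 were positive, against 48.6% of all genes. Gpnmb, a lysosomal glycoprotein of lipid-laden macrophages, rose from 7.21 and 7.13 CPM to 25.5 and 26.4 CPM (log2 fold change 1.86 ± 0.36, adjusted p = 0.0267). Trem2, a lipid receptor, rose from 2.95 and 3.2 CPM to 7.29 and 7.43 CPM (1.26 ± 0.22, adjusted p = 0.0141). Adgre1 (F4/80), Lyz2, Aif1 and Lyve1 rose by 1.22, 1.09, 1.07 and 1.01 on the log2 scale. Csf1r, the growth factor receptor carried by the whole lineage, had 43.3 and 37.5 CPM in control and 64.6 and 63.2 CPM in surgery libraries and was not called (adjusted p = 0.255). The summed CPM of the macrophage list was 301.5 and 301.7 in control and 544.5 to 549.9 in surgery libraries, and moved with the complement and class II genes above. Its part in them was not tested.

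Lymphocyte genes were low. Of 15 B and T cell genes tested all were positive, against 48.6% of all genes, with a median of 1.37. Their summed CPM was 37.4 to 39.7 in control and 69.1 to 69.9 in surgery libraries, most of it from Cd4, which rat macrophages also carry. Nkg7, a granule protein of cytotoxic cells, was the one called (6.67%, against 1.55% of all genes). It had 0.158 and 0.2 CPM in control and 0.943 and 0.968 CPM in surgery libraries (log2 fold change 2.41 ± 0.49, adjusted p = 0.0306). Cxcl13, the chemokine that draws B cells, rose from 0.394 and 0.633 CPM to 2.49 and 2.13 CPM (2.17 ± 0.46, adjusted p = 0.034). The other 25 chemokine and cytokine genes tested were not called, which makes 3.85% of that list called, against 1.55% of all genes. All 24 interferon-stimulated genes had a positive log2 fold change, against 48.6% of all genes, with a median of 0.40. Irf8, a factor of myeloid cells, was the one called (4.17%, against 1.55% of all genes), at 0.76 ± 0.17 (adjusted p = 0.0461).

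In the list of neutrophil and mast cell genes 2 of 10 tested were called (20%, against 1.55% of all genes). Both were lower and of mast cells, and the list median was -0.47. Fcer1a, the alpha chain of the IgE receptor, fell from 1.12 and 1.37 CPM to 0.375 and 0.341 CPM (log2 fold change -1.79 ± 0.34, adjusted p = 0.0235). Tpsb2, a tryptase, fell from 4.23 and 3.95 CPM to 1.81 and 1.95 CPM (-1.12 ± 0.26, adjusted p = 0.0454). Cpa3, the mast cell carboxypeptidase, had 6.11 and 7.05 against 2.62 and 2.96 CPM (adjusted p = 0.0607) and Cma1, chymase, 7.45 and 7.87 against 4.76 and 3.9 CPM (adjusted p = 0.187). Kit, the receptor that mast cells need, had 3.17 and 4.53 against 4.89 and 5.18 CPM (adjusted p = 0.581). Besides Kit, 3 neutrophil genes had a positive log2 fold change without a call, S100a8 (1.94, adjusted p = 0.342), S100a9 (1.09, adjusted p = 0.537) and Camp (2.83, adjusted p = 0.516), the last at no more than 21 counts in any of the 4 libraries.

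**Figure D4:**
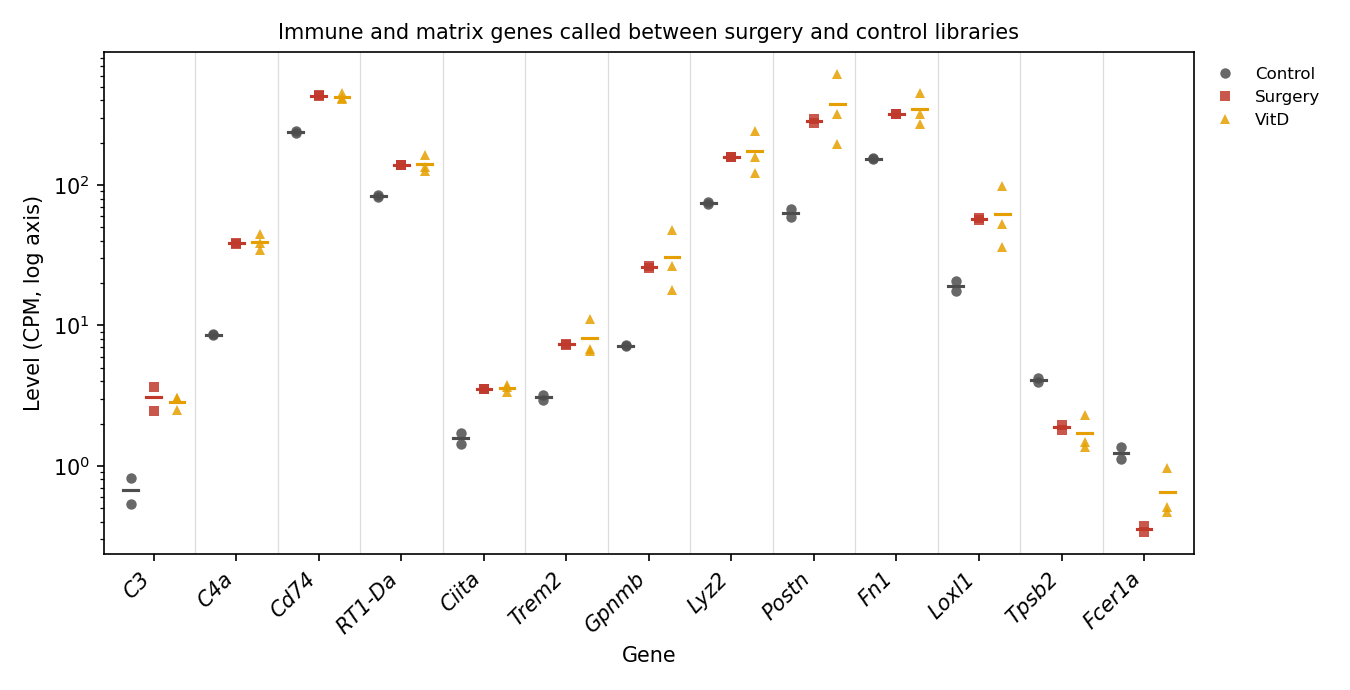
CPM (log axis) of 13 called genes of complement, antigen presentation, macrophages, matrix and mast cells in each control, surgery and VitD library, with a bar at each group mean. For 11 genes the surgery and VitD points lie above the control points, and for the mast cell genes Tpsb2 and Fcer1a they lie below.

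Lists of markers of other tissues that the sample could hold had at most 1 call each, which in lists this short is a share above the 1.55% of all genes. In the list of Schwann cells and myelin 1 of 16 genes was called (6.25%), Cnp, a myelin enzyme that rose from 19.1 and 17.6 CPM to 35.2 and 34.1 CPM (log2 fold change 0.91 ± 0.14, adjusted p = 0.00817). No neuron or spinal cord gene was called, and the 6 tested summed to at most 20.8 CPM in the surgery libraries. In the adipocyte list the one call among 12 genes (8.33%) was Cfd, and summed CPM was 288.4 to 292.8 in control and 465.8 to 477.7 in surgery libraries. The endothelial list had 1 call among 13 genes (7.69%), Lyve1, which macrophages also carry. The blood list had 1 among 8 (12.5%), Pf4, the platelet chemokine (0.69 ± 0.15, adjusted p = 0.036). Globin genes were not called, with Hbb at 333 and 331 against 212 and 214 CPM (adjusted p = 0.47). Cell cycle genes had no call, but 21 of 23 were positive, against 48.6% of all genes, with a median of 0.63.

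Circadian clock genes held 4 calls among 19 tested (21.1%, against 1.55% of all genes). Arntl (BMAL1), which drives the positive arm of the clock, had 28.2 CPM in both control and 13 and 12.1 CPM in the surgery libraries (log2 fold change -1.17 ± 0.17, adjusted p = 0.00615). Npas2, its partner, fell from 7.89 and 6.82 CPM to 4.03 and 3.57 CPM (-0.95 ± 0.22, adjusted p = 0.0461), and Nfil3, a repressor of D-box genes, from 75 and 65.1 CPM to 29.3 and 29.5 CPM (-1.25 ± 0.28, adjusted p = 0.0402). Dbp, an activator at the same D-boxes, rose from 19.3 and 18 CPM to 54.4 and 52.3 CPM (1.52 ± 0.22, adjusted p = 0.00667). Nr1d1 (REV-ERB alpha), the repressor of Arntl, had 242 and 216 against 207 and 199 CPM (adjusted p = 0.757). The hour of tissue collection is not given in the sources used here, so surgery and hour cannot be told apart.

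The Arntl promoter is shown because it holds TAGGTCA, the element through which REV-ERB and ROR factors are known to set this gene. The letters are in capitals and begin 16 bases before the start on the gene's own strand.
Arntl, chr1:176766078-176766377 in GRCr8, plus strand: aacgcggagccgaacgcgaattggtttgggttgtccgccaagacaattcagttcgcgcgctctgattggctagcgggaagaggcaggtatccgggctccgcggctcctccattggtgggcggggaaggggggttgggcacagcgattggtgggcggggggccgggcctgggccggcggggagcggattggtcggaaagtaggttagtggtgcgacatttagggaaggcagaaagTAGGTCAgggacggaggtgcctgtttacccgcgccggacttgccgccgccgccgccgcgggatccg
On either strand these letters are present in 2.63% of all promoters of this length, in 4 of 149 higher and in 2 of 43 lower called genes with a promoter.

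Among the other lower genes, LOC691532 stood alone. It is listed as a pseudogene, and its reads and those of its parent gene are not told apart with certainty. It had 1878 and 1797 counts in the control and 15 and 13 counts in the surgery libraries, a 159-fold difference (log2 fold change -7.31 ± 0.60, adjusted p = 0.000123). Palld, an actin-bundling protein, fell from 38.8 and 39.3 CPM to 18.4 and 19.3 CPM (-1.05 ± 0.18, adjusted p = 0.0141). Ccdc92, a centriolar protein, fell from 51.1 and 48 CPM to 18 and 19.4 CPM (-1.41 ± 0.21, adjusted p = 0.0071), and Mpp3, a membrane scaffold, from 22.3 and 19.8 CPM to 7.82 and 7.19 CPM (-1.49 ± 0.23, adjusted p = 0.00817). Ush1c, Cacna1a, a presynaptic calcium channel subunit, Irgm, an interferon-inducible GTPase, and RGD1306739 had log2 fold changes between -1.36 and -0.94. Of the 15 largest decreases 4 were placeholder or mitochondrial genes.

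The VitD group, operated and given cholecalciferol, is the other operated group without pMT, and its comparison with control shares the control libraries. Ankrd1 stood there at 752, 267 and 84.7 CPM, Actc1 at 445, 184 and 88.5 CPM and Postn at 613, 318 and 197 CPM. All lay above both control libraries, and replicate 2 lay close to the surgery libraries. Arntl, at 11.4, 14.7 and 14 CPM, and LOC691532, at 0.164, 0.189 and 0.169 CPM, lay below them. In VitD against control 1492 genes (8.67%) were called, a count that shares its control libraries with the surgery comparison. Between VitD and surgery none of the 17201 genes was called by edgeR's quasi-likelihood test, although 139 had an unadjusted p under 0.05, of which 1 was among the 72 genes named by rule and called in surgery. DESeq2 called none of the 72 either.

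In the 8 libraries of operated rats given pMT, alone or with cholecalciferol, several of these genes stood closer to the control libraries, though not all within their range. Ankrd1 ranged from 7.07 to 15.3 CPM there, Actc1 from 16.8 to 31.8 CPM and Tnnt2 from 2.19 to 6.17 CPM. Chrng lay above both control libraries in all 8, from 0.185 to 0.555 CPM with a median of 0.366 CPM, and below both surgery libraries. LOC691532 ranged from 18.9 to 60.2 CPM, against at most 0.194 CPM in the 5 surgery and VitD libraries, and Dbp from 15.5 to 27.1 CPM, against 46.7 CPM or more in those 5. LOC691532 and Dbp thus split the 15 libraries in the same way as the muscle genes did, and the part of that split in the results was not tested.

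**Figure D5:**
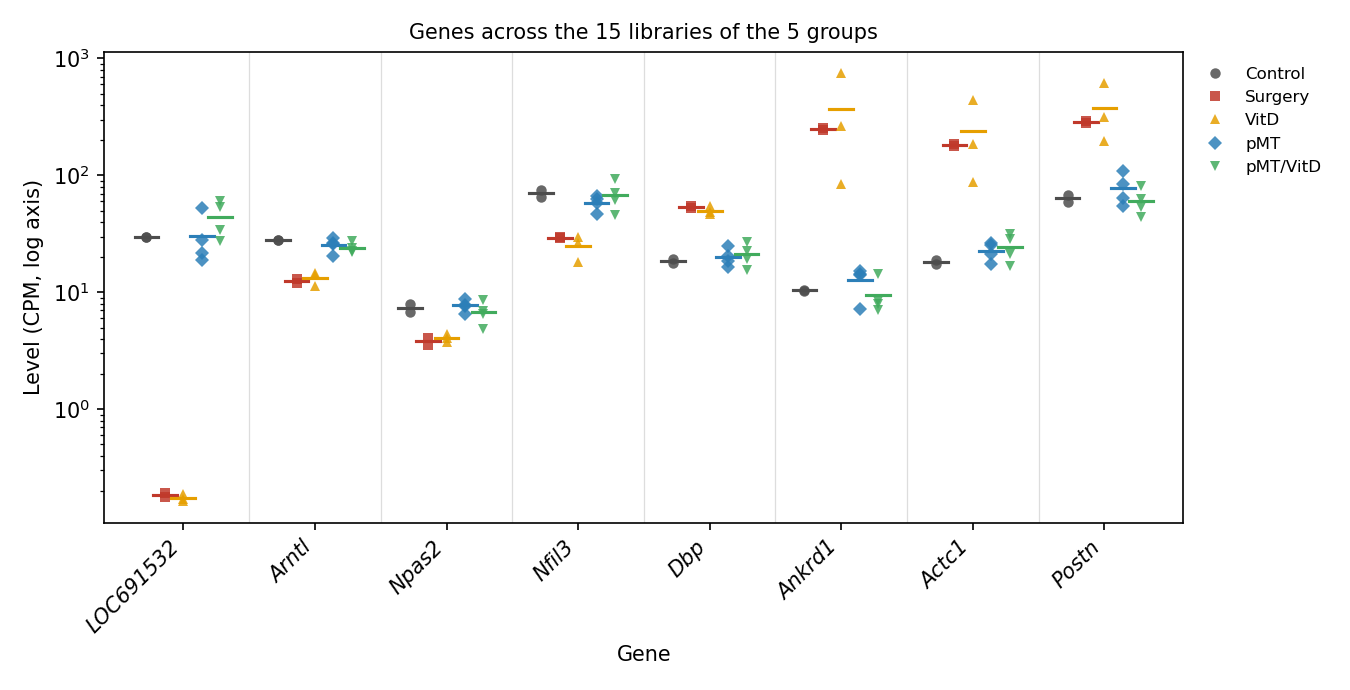
CPM (log axis) of 8 genes in each of the 15 libraries by group, with a bar at each group mean. For LOC691532, Arntl, Npas2 and Nfil3 the 5 surgery and VitD libraries lie below the other 10, and for Dbp, Ankrd1, Actc1 and Postn they lie above.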

How the data were processed

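Multifidus RNA was measured by paired-end sequencing in 15 libraries. The reads were trimmed (Trimmomatic 0.38), aligned to rn6 with HISAT2 2.1.0 and RefSeq genes, and quantified with StringTie 2.1.3b by the authors, who deposited read counts per gene without normalization. They also deposited TPM and FPKM. Deposited TPM served only for a relative gene length, and FPKM was not used here. Strand handling and multi-mapped reads are not stated, so near-identical and overlapping genes are uncertain.

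Counts were tested in R 4.3.3 with edgeR 4.0.16, using TMM factors, filterByExpr and the robust quasi-likelihood F-test on all 15 libraries with group as the only term. SE is the absolute log2 fold change divided by the square root of F. Alternatives included DESeq2 1.42.0 and limma 3.58.1, and fits without the libraries that resembled others were added after seeing the data. Genes were named by size of change (15 a direction, mean log2 CPM of at least 1), as called members of 42 gene lists, as the most abundant members of a list, or as blotted proteins. Any others are marked in the text, and some members of the lists are not reported here. The members and lists were chosen with earlier results of these data known. The code was tested on simulated data with 200 planted changes. There the edgeR test recovered 31% of the 2-fold and 68% of the 4-fold changes, with 3 false calls. A gene without a call may therefore still have changed.

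Of 72 called genes named by rule, 54 had an entry in the RefSeq promoter table (GRCr8).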

Additional observations from a re-analysis of the deposited data

Results flagged for a closer look

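Stray values were looked for in groups of 4 libraries, so in the pMT and pMT/VitD groups and not in the control and surgery groups of 2. Of 28 sets of 4 values checked, 4 held a library that stood apart by Dixon's criterion, where 1.4 would by chance. The mitochondrial genome took 22.6% of counts in pMT replicate 4, against 11.1% to 12.9% in its group otherwise. The TMM factor of pMT/VitD replicate 4 was 0.982, against 0.849 to 0.867 for the rest of its group. Ankrd1 stood at 7.16 CPM in pMT replicate 4 and between 14.1 and 15.3 CPM in the rest of that group. C4a stood at 6.01 CPM in the same library and between 9.03 and 9.32 CPM in the rest. These libraries reach the surgery comparison through the shared spread, the filter on counts and the TMM scaling. Without pMT replicate 4 and pMT/VitD replicate 4, the median log2 fold change of all genes was 0.0153, against -0.0138 with them.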

How the results depend on the processing

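No called gene turned its direction in any of the 21 other settings that tested it. That was nearly fixed in advance, because the groups did not overlap in any called gene. The number of calls did not hold. Against 266 calls (215 higher, 51 lower), there were 997 (969 and 28) with library size only, 5289 (2703 and 2586) with only the control and surgery libraries, 716 (543 and 173) without pMT replicate 4 and pMT/VitD replicate 4, 1001 (717 and 284) with DESeq2, 4938 (2492 and 2446) with limma voom, 542 (370 and 172) with the gene length trend removed, 154 (134 and 20) with a 2-fold change required, and 1169 (825 and 344) or 1054 (747 and 307) with the exact test on 4 libraries, a 2-fold change and an unadjusted or adjusted p. With only the control, surgery and VitD libraries there were 236 (157 and 79), of which 118 were among the 266. Without VitD replicate 2 there were 123 calls (102 and 21), and without it, pMT replicate 2 and pMT/VitD replicate 1 there were 20 (16 and 4). Leaving out one control or surgery library gave 8 to 20 calls, 5 to 19 of them among the 266, 7 to 18 higher and 1 to 2 lower. With the replicate number as a block there were 106 (91 and 15), of which 97 were among the 266. Whether the numbers pair the samples cannot be told from these counts. Deviations of same-numbered libraries from their group means correlated at -0.869 to 0.375 over 24 pairs, and at 0.142 for control and surgery. In a group of 2 the deviations mirror each other, so these values are not independent. With library size only, 97.2% of calls were higher against 80.8%, the median of all genes was 0.252, and uncalled genes changed sign to 0.214 for Akt1, 0.199 for Ndufb8, 0.176 for Cox4i1, 0.165 for Myh8, 0.14 for Sdhb, 0.0406 for Acta1, 0.0193 for Atp5a1 and 0.000588 for Akt2, all below that median. The cause of these shifts in the number of calls was not tested. At 3 counts or fewer in the controls, depth limits a fold to a lower bound, as for 11 called genes.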

Other observations

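Other gene lists of muscle held few calls. Of 37 Z-disc, costamere and cytoskeleton genes Ankrd1 was the one called (2.7%), and of 34 apoptosis genes and p53 targets Cdkn1a was (2.94%). The share over all genes was 1.55%. Among 27 calcium handling genes (median log2 fold change -0.24), 24 ion channels and transporters of the fibre membrane (-0.28), 22 regulators of mitochondrial biogenesis (-0.16), 27 genes of fatty acid use (-0.10) and 10 markers of fibre identity (-0.27), none was called by edgeR's quasi-likelihood test. At an unadjusted p under 0.05 in either direction these lists held 6, 7, 2, 3 and 0 genes, against 17% of all genes tested.

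Stress lists had no calls by that test either. These were 22 heat shock and chaperone genes (median 0.07), 28 metallothionein and antioxidant genes (-0.04), 13 polyamine genes (0.04) and 22 immediate early genes (-0.19). An unadjusted p under 0.05 was reached by 7, 4, 1 and 5 of them, against 17% of all genes tested. Bone and cartilage (9 tested, median 0.78) and skin markers (2 tested) had no call, and their summed CPM did not pass 31.5 and 1.6 in the surgery libraries.

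Further libraries lay between others of the series. pMT replicate 2 was described by a mean of pMT replicates 1 and 3 with equal weights (0.5), at a spread of the log2 ratio of 0.0614 against 0.163 and 0.161 to each alone. pMT/VitD replicate 1 was described by pMT replicate 4 and pMT/VitD replicate 2 with weights of 0.45 and 0.55, at 0.0921. Surgery replicate 2 was closest to a mean of surgery replicate 1 (weight 0.65) and VitD replicate 2 (0.35), at 0.0639 against 0.0807 to surgery replicate 1 alone. Each mean was the best of 91 pairs with fitted weights for its library. Why these libraries lie between others was not tested.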
